A study of Homo sapiens with 18 samples.

Results

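Interferon-stimulated antiviral genes are the genes that cells switch on when they meet type I or type II interferon, and their products block viral entry, destroy viral RNA, tag proteins or carry the interferon signal further. The set described here holds 49 genes, taken by their symbols in the deposited expression tables; the rule uses no measured value, although the list was drawn up with earlier results of these data known. The HL-60 tables listed 41 of the 49 among 17110 genes, the MOLM-13 tables listed 44 among 17475, and 19068 genes were listed in either. IFI44, IFI44L, IFI27, EPSTI1 and CXCL10 were listed for neither line, and OAS2, OASL and RSAD2 were listed for MOLM-13 alone, so these 8 enter fewer comparisons or none. All 41 and all 44 listed members passed the filter on low values.

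The series measured RNA from HL-60 and MOLM-13, human acute myeloid leukemia lines (HL-60 is promyelocytic, MOLM-13 monocytic), in 18 samples. Each line was kept for 48 h, labelled day 2, with DMSO (the solvent control), with DAC (decitabine, a cytidine analogue that is built into DNA and traps DNA methyltransferases) or with NTX-301, giving 6 groups of 3 samples. HL-60 is stated to have received 30 nM and MOLM-13 15 nM. Whether that covers both drugs or DAC alone is not settled by the labels, so line and dose cannot be told apart, and NTX-301 is set against DAC only as the groups are labelled. The triplicates are described as wells, and nothing says that they were separate cultures, so p-values measure only the spread between these samples. In bulk RNA, fewer cells that express a gene and less RNA per cell cannot be told apart.

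Binding of interferon to its receptors activates the kinases JAK1 and TYK2, which phosphorylate STAT proteins such as STAT2. A complex that holds STAT2 and IRF9 binds the interferon-stimulated response element (ISRE) in the promoters of many interferon-stimulated genes, while the gamma-activated site (GAS) serves the interferon-gamma response. DNA methyltransferase inhibitors are known for raising interferon-stimulated genes in cancer cells, in part through double-stranded RNA from silenced repeats.

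The promoters show what the members share in sequence. Windows of 250 bases before the transcription start and 50 bases from it came from RefSeq on GRCh38.p14 and matched 41 of the 49 members, with 56 windows since 13 members had more than 1 start. The others (USP18, TRIM22, OASL, GBP2, IFIT2, OAS2, IFITM2 and MX2) are named only. The ISRE was searched as GAAA, any 2 bases and GAAA again, and the GAS as TTCNNNGAA, each on both strands; matches may overlap. An ISRE match stood in the windows of 27 of 41 members (65.9%), against 4.38% of all 27305 genes with a window. A GAS match stood in 13 members (31.7%), against 9.38% of all genes. A longer form of the ISRE, with CT after the same letters, was found in 16 members (39.0%), against 0.322% of all genes. IRF1 and IRF9 held a GAS and no ISRE match. A match is a run of letters and not a measured binding site. The stretches below belong to members whose RNA differed most between drug and DMSO or whose drug response is set out below. Each holds 80 bases in the direction of the gene, with ISRE matches on either strand in capitals where they end before the start.
BST2: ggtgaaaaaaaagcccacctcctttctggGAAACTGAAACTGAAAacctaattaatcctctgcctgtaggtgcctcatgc
OAS3: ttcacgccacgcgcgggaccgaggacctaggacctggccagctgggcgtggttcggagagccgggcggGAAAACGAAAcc
IFITM1: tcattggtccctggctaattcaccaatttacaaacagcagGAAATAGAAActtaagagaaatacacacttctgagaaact
HERC5: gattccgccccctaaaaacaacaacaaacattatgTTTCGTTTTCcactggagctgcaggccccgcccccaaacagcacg
LGALS3BP: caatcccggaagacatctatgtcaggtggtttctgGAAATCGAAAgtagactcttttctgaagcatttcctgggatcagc
PARP14: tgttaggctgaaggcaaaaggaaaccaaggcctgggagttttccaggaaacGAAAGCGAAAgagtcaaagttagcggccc
IFI6: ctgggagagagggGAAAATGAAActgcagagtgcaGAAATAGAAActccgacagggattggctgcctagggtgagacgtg
ISG15: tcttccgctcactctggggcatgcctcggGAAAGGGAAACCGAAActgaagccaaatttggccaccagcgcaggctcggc
IFIT1: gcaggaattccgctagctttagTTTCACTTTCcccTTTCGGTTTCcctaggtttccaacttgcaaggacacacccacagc
These lie at chr19:17405710-17405789 (minus strand, BST2), chr12:112938394-112938473 (plus, OAS3), chr11:313960-314039 (plus, IFITM1), chr4:88457010-88457089 (plus, HERC5), chr17:78979937-78980016 (minus, LGALS3BP), chr3:122680759-122680838 (plus, PARP14), chr1:27672241-27672320 (minus, IFI6), chr1:1013355-1013434 (plus, ISG15) and chr10:89392485-89392564 (plus, IFIT1), all before the annotated start. The capitals in BST2, as in ISG15, are 2 ISRE matches that overlap, and in BST2 a GAS match runs into the first of them. IFI6 and IFIT1 each show 2 separate ISRE matches. IFITM1 has a further ISRE match that runs across the start, and its first bases end the printed stretch in lower case.

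Values are the authors' normalized log2 levels, 1 per gene and sample. Whether they were corrected for gene length is not given in the sources used here, nor how the lines were scaled to each other, so levels are neither ranked between genes nor tested between lines. The median member lay at 8.29 in HL-60 (all genes 9.54) and at 8.49 in MOLM-13 (all genes 9.82), and 10 and 15 members lay under a log2 level of 7. The median SD over replicates of the members ran from 0.0347 to 0.0456 across the 6 groups. Among all genes, the median range over the 9 samples of a line, for genes with a mean between 5 and 7, was 0.143 (HL-60) and 0.210 (MOLM-13). For genes between 8 and 12 it was 0.208 and 0.257, and for genes with a mean under 3 it was 0.020 and 0.027. The values are normalized, so the read depth behind them is unknown, and precision rests on the spread over samples. With DMSO, the myeloperoxidase gene MPO stood at 18.71 in HL-60 and 13.04 in MOLM-13, while the promyelocytic proteases ELANE (14.26 and 14.94), AZU1 (12.80 and 14.94) and PRTN3 (16.07 and 16.89) read higher in MOLM-13. CTSG (13.73 and 13.45) and MYC (16.52 and 14.48), of the same marker list, read higher in HL-60. FLT3 stood at 11.79 in HL-60 but 15.20 in MOLM-13. HOXA9 was listed for MOLM-13 alone. Of 18 markers of T, B, erythroid, epithelial, fibroblast and endothelial cells, only 3 were listed in HL-60, and 6 in MOLM-13. The HL-60 means with DMSO, DAC and NTX-301 were 6.43, 6.49 and 6.83 for CD79A, 4.63, 4.62 and 4.72 for KRT8, and 8.43, 8.56 and 8.77 for PECAM1. In MOLM-13 they were 7.45, 7.57 and 7.74 for CD3D, 8.62, 8.50 and 8.98 for HBB, 7.75, 7.65 and 8.08 for HBA1, 5.15, 5.43 and 5.24 for KRT8, 5.82, 6.00 and 6.05 for COL1A1, and 13.01, 13.25 and 13.14 for PECAM1. Their part in the results was not tested.

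NTX-301 raised most listed members in HL-60, DAC raised few there, and both drugs raised about as many as each other in MOLM-13. A member was called where limma's test gave an adjusted p (Benjamini-Hochberg over all genes tested) under 0.05. In HL-60, DAC against DMSO called 6 of 41 members higher (14.6%) and 7 lower (17.1%), where 11.6% of all 17046 genes tested were called higher and 12.6% lower. Without regard to direction these 13 members compare with 24.2% of all genes. In both directions the members' shares lie near the background. NTX-301 against DMSO in HL-60 called 26 members higher (63.4%) and 2 lower (4.88%), against 18.3% and 19.2% of all genes, or 37.4% in either direction. In MOLM-13, DAC against DMSO called 22 of 44 members higher and 1 lower, against 15.4% and 21.2% of all 17475 genes, or 36.6% in either direction. NTX-301 against DMSO in MOLM-13 called 23 higher (52.3%) and none lower, against 20.3% and 24.8%, or 45.1% in either direction. Groups that did not overlap at all between drug and DMSO were common among all genes as well. In HL-60 they made up 18 members with DAC (43.9%, all genes 38.5%) and 29 with NTX-301 (70.7%, all genes 47.2%). The MOLM-13 counts were 26 with DAC (59.1%, all genes 47.9%) and 29 with NTX-301 (65.9%, all genes 55.8%).

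The size of the changes was small. The median member moved by 0.0131 on the log2 scale with DAC in HL-60, 0.128 with NTX-301 in HL-60, 0.118 with DAC in MOLM-13 and 0.133 with NTX-301 in MOLM-13, where the median over all genes lay between 0.000641 and 0.00336. The highest log2 difference of a member against DMSO was 0.77, that of BST2 with NTX-301 in HL-60. The 2 drugs were compared with the same DMSO samples in each line, so their values are given side by side and not as independent counts. XAF1, LGALS3BP and GBP2 were called higher in all 4 comparisons with DMSO (7.32% of 41 members, 1.87% of all 15474 genes tested in both lines). Another 11 members (STAT2, OAS1, OAS3, MX2, IFITM2, UBE2L6, HERC5, SP110, IFI16, SAMD9L and IFI6) were called higher in 3 of the 4 (26.8%, all genes 4.12%). Some of these calls were lost in some alternative: IFI6 with NTX-301 in HL-60, IFITM2 with NTX-301 in MOLM-13, and UBE2L6, HERC5 and SAMD9L with DAC in MOLM-13. The call of XAF1 with NTX-301 in MOLM-13 was lost in 6 of the 9 fits that leave out 1 library (0.07 to 0.10). The DAC calls of GBP2 in both lines were also lost in some alternative. TRIM21, MX1 and PARP12 were listed for both lines and called in none (7.32%, all genes 30.5%), and no member was called lower in all 4 (all genes 3.55%).

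**Figure D1:**
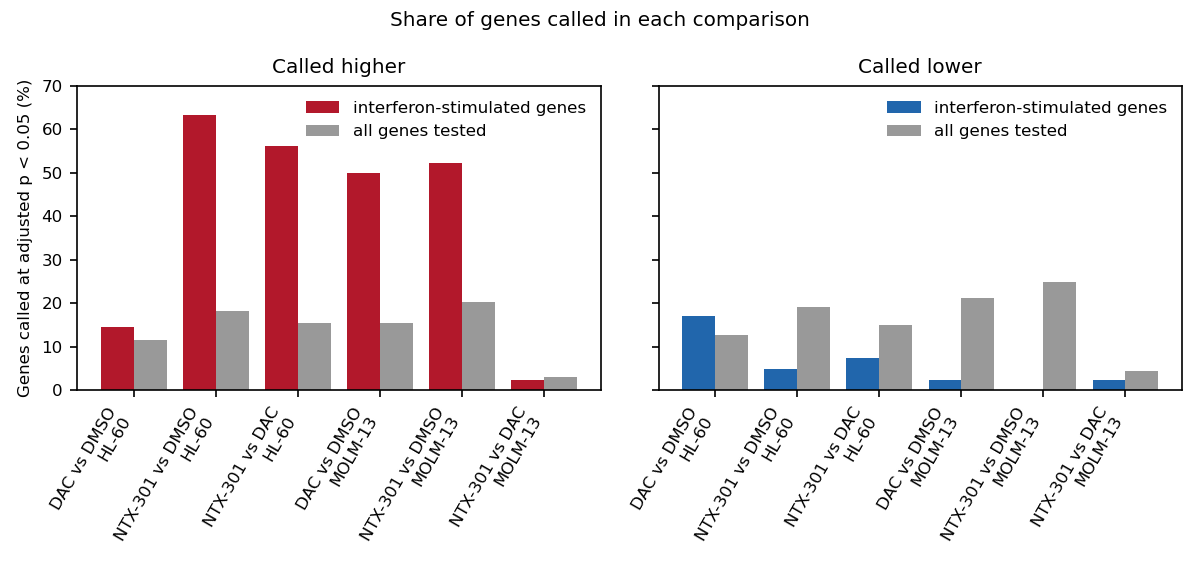
Bars give the percentage of genes called higher (left) or lower (right) at an adjusted p under 0.05 in the 6 comparisons within a line, colored for the interferon-stimulated genes listed and grey for all genes tested. The colored bar reaches 63.4% against a grey bar of 18.3% for NTX-301 over DMSO in HL-60, while the bars for DAC over DMSO in HL-60 stand at 14.6% and 11.6%.

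**Figure D2:**
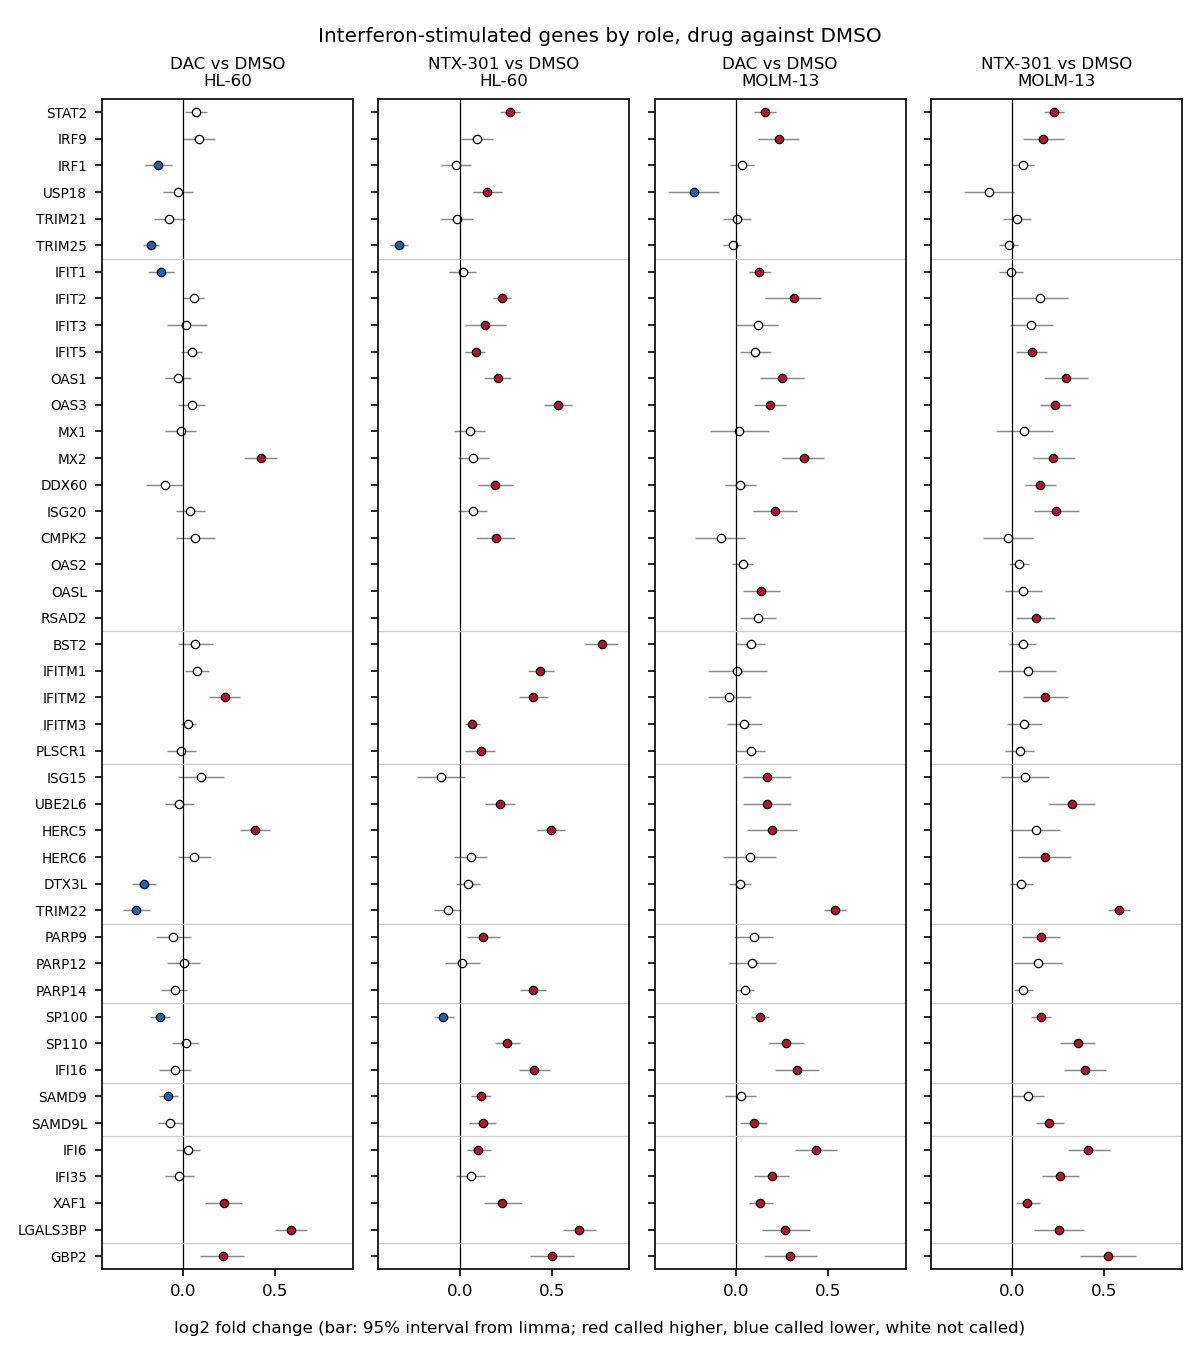
Each row is a listed member, grouped by role with grey lines between roles, and the horizontal axis is its log2 fold change against DMSO with the 95% interval from limma. Red points were called higher, blue lower and white not called; in HL-60 the DAC panel holds 6 red and 7 blue points and the NTX-301 panel 26 red and 2 blue.

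Among the signal carriers, STAT2 rose with NTX-301 in both lines and with DAC in MOLM-13, and IRF9 was called in MOLM-13 with both drugs and in no HL-60 comparison. STAT2, a signal carrier of the type I response, read 11.42, 11.38 and 11.35 in the HL-60 DMSO samples, 11.46, 11.42 and 11.48 with DAC and 11.64, 11.69 and 11.65 with NTX-301. All 3 NTX-301 samples lay above the other 6. The rise over DMSO was 0.27 (SE 0.0268, adjusted p 2.29e-06), while DAC gave 0.07 (adjusted p 0.0776). In MOLM-13 STAT2 read 12.03, 12.05 and 12.04 with DMSO, 12.19, 12.20 and 12.22 with DAC and 12.22, 12.31 and 12.27 with NTX-301, and both drug groups lay wholly above DMSO. These rises were 0.16 (adjusted p 0.000661) and 0.22 (adjusted p 4.20e-05).

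IRF9, which gives the STAT complex its DNA contact, had means in HL-60 of 8.12 ± 0.010 with DMSO, 8.21 ± 0.026 under DAC and 8.22 ± 0.060 under NTX-301 (SD, n = 3 each). The differences of 0.08 and 0.09 did not pass (adjusted p 0.142 and 0.0791), although neither drug group overlapped DMSO. In MOLM-13 IRF9 read 8.86, 9.0 and 8.87 with DMSO, 9.18, 9.09 and 9.15 with DAC and 9.09, 9.04 and 9.10 with NTX-301. Both drug groups lay above all DMSO samples, with rises of 0.23 (adjusted p 0.00387) and 0.17 (adjusted p 0.0189). The call with NTX-301 ended without DMSO replicate 1, DMSO replicate 3, NTX-301 replicate 1 or NTX-301 replicate 3 (0.14 to 0.21 over all 9 fits that leave out 1 library). IRF1, a factor that many interferon-gamma targets need, fell by 0.14 with DAC in HL-60 (means 10.73 with DMSO and 10.59 with DAC, adjusted p 0.0130), a call that ended without DMSO replicate 3 or DAC replicate 2 (values from -0.17 to -0.11). With NTX-301 it differed from DMSO by -0.02 there and by 0.06 in the other line, neither past the test.

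The regulators of this group went different ways. TRIM25, the ubiquitin ligase that activates the RNA sensor RIG-I, had the lowest difference from DMSO of any member in HL-60. It read 12.91, 12.95 and 12.94 with DMSO, 12.76, 12.77 and 12.73 with DAC and 12.61, 12.61 and 12.57 with NTX-301. The 3 groups did not overlap. TRIM25 fell by 0.18 under DAC (adjusted p 7.09e-05) and fell by 0.33 under NTX-301 (adjusted p 6.81e-08), and NTX-301 lay below DAC by -0.16 (adjusted p 0.000129). In MOLM-13 its means were 13.06, 13.04 and 13.05, with differences of -0.02 for both drugs. USP18, the protease that removes ISG15 and restrains the interferon receptor, rose by 0.15 with NTX-301 in HL-60 (adjusted p 0.00508) and fell by 0.23 with DAC in MOLM-13 (adjusted p 0.0130). The HL-60 call was lost in some alternative. The MOLM-13 samples of USP18 read 7.63, 7.69 and 7.55 with DMSO, 7.33, 7.42 and 7.44 with DAC and 7.59, 7.50 and 7.42 with NTX-301, so that DAC did not overlap DMSO and NTX-301 did. Without DMSO replicate 2 the DAC call was lost at -0.20.

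Among the effectors that act on RNA or nucleotides, 7 of 11 listed in HL-60 rose with NTX-301 and 1 with DAC, and 7 of 14 in MOLM-13 rose with each drug. Over all genes the shares called higher were 18.3% with NTX-301 and 11.6% with DAC in HL-60, and 15.4% with DAC and 20.3% with NTX-301 in MOLM-13, so the single HL-60 call with DAC is near the background. OAS3, an oligoadenylate synthetase that makes the messenger for RNase L, read 9.39, 9.41 and 9.31 with DMSO, 9.42, 9.41 and 9.42 with DAC and 9.88, 9.90 and 9.93 with NTX-301 in HL-60. The NTX-301 samples stood apart from all others. The rise over DMSO was 0.54 (SE 0.0342, 1.45-fold, adjusted p 4.14e-08), the 146th highest difference among all genes tested, and DAC gave 0.05 (adjusted p 0.350). In MOLM-13 OAS3 had means of 5.40, 5.58 and 5.63 and the rises were 0.19 (DAC, adjusted p 0.00268) and 0.23 (NTX-301, adjusted p 0.000437). OAS1, of the same enzyme family, rose by 0.21 with NTX-301 in HL-60, by 0.25 with DAC in MOLM-13 and by 0.29 with NTX-301 in MOLM-13.

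MX2, a dynamin-like GTPase that restricts HIV at the nuclear pore, was the one member that rose in HL-60 with DAC and was not called with NTX-301. It read 7.58, 7.62 and 7.66 with DMSO, 8.02, 8.02 and 8.08 with DAC and 7.69, 7.65 and 7.75 with NTX-301. The DAC samples lay above all others, and NTX-301 overlapped DMSO. The rise with DAC was 0.42 (SE 0.0405, adjusted p 5.79e-06), and NTX-301 lay below DAC by -0.35 (adjusted p 2.03e-05). In MOLM-13 MX2 read 9.26, 9.36 and 9.35 with DMSO, 9.73, 9.67 and 9.67 with DAC and 9.44, 9.60 and 9.59 with NTX-301, all drug samples above DMSO, and rose by 0.37 (adjusted p 0.000242) and 0.22 (adjusted p 0.00489). MX1, its antiviral relative against influenza virus, had differences between -0.01 and 0.07 in the 4 comparisons with DMSO and was called in none.

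The IFIT proteins bind viral RNA by its end, and they did not move as 1 block. IFIT1 read 6.37, 6.33 and 6.38 with DMSO, 6.22, 6.20 and 6.29 with DAC and 6.35, 6.37 and 6.40 with NTX-301 in HL-60. DAC lay below both other groups, a fall by 0.12 (adjusted p 0.0190) that lost its call without DMSO replicate 3, DAC replicate 1 or DAC replicate 2 (-0.15 to -0.10). In MOLM-13, where IFIT1 lay at 4.48, 4.60 and 4.47, it rose by 0.13 with DAC (adjusted p 0.00401) and differed by -0.01 with NTX-301. IFIT2 rose by 0.23 with NTX-301 in HL-60 (adjusted p 6.41e-06) and by 0.31 with DAC in MOLM-13 (adjusted p 0.00382). IFIT3 rose by 0.14 with NTX-301 in HL-60 (adjusted p 0.0482), a call lost in 14 of 17 alternatives. Centring on the sample median and quantile normalization were among these. Of the 9 fits that leave out 1 library, 7 lost it (0.10 to 0.19), and it was kept only without DAC replicate 2 or NTX-301 replicate 2. IFIT5 rose by 0.09 with NTX-301 in HL-60 (adjusted p 0.0150), lost without DMSO replicate 3 or NTX-301 replicate 2 (0.08 to 0.10). That call was lost in 4 of 17 alternatives, among them centring on the sample median. With NTX-301 in MOLM-13 IFIT5 rose by 0.10 (adjusted p 0.0428), lost without any 1 DMSO sample, DAC replicate 2 or NTX-301 replicate 2 or 3 (0.06 to 0.13).

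Of the rest of this role, DDX60 (a helicase that aids RNA sensing) and CMPK2 (a mitochondrial nucleotide kinase) rose with NTX-301 in HL-60 by 0.19 and 0.20, and DDX60 also in MOLM-13 by 0.15. The CMPK2 call was lost after quantile normalization. ISG20, an RNA exonuclease, rose in MOLM-13 by 0.21 with DAC and 0.24 with NTX-301, and both calls were lost in some alternative. OASL, which helps RIG-I, rose in MOLM-13 by 0.14 with DAC (adjusted p 0.0302), a call lost without any 1 DMSO sample or DAC replicate 2 or 3 (0.12 to 0.16). RSAD2, the viperin gene whose product makes a chain-ending nucleotide, rose by 0.13 with NTX-301 (adjusted p 0.0456), lost without DMSO replicate 1 or 3, DAC replicate 1 or NTX-301 replicate 1 or 2 (0.09 to 0.16). OAS2 had group means of 4.40 to 4.44 in MOLM-13 and was not called.

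In HL-60 all 5 membrane effectors rose with NTX-301 (all genes 18.3%), by a median of 0.398; the calls of IFITM3 and PLSCR1 were lost when single libraries were left out. In MOLM-13 none of the 5 was called with DAC and 1 with NTX-301, near the 20.3% of all genes. BST2 (tetherin), which holds budding virus particles to the cell surface, had the highest difference of any member. In HL-60 it read 7.96, 8.04 and 8.04 with DMSO, 8.03, 8.07 and 8.14 with DAC and 8.77, 8.83 and 8.75 with NTX-301. NTX-301 stood clear of the other 6 samples, and DAC overlapped DMSO. The rise with NTX-301 was 0.77 (SE 0.0430, 95% interval 0.68 to 0.86, 1.71-fold, adjusted p 1.05e-08), the 46th highest among all genes tested, and the difference with DAC was 0.07 (adjusted p 0.294). In MOLM-13 BST2 read 12, 11.94 and 12.07 with DMSO, 12.11, 12.11 and 12.03 with DAC and 12.10, 12.02 and 12.06 with NTX-301, 3 overlapping groups with differences of 0.08 and 0.06 that did not pass (adjusted p 0.102 and 0.239).

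IFITM1, IFITM2 and IFITM3 make membranes resist fusion with enveloped viruses. They are close copies of each other, and how reads that match several of them were assigned is not given in the sources used here, so their separate values are uncertain. IFITM1 read 5.73, 5.72 and 5.74 with DMSO, 5.83, 5.79 and 5.80 with DAC and 6.19, 6.10 and 6.21 with NTX-301 in HL-60, without overlap between the groups. It rose by 0.44 with NTX-301 (adjusted p 1.28e-07), and the 0.08 with DAC did not pass (adjusted p 0.0976). IFITM2 read 8.83, 8.86 and 8.83 with DMSO, 9.08, 9.11 and 9.0 with DAC and 9.27, 9.21 and 9.23 with NTX-301. Here each drug group stood above DMSO and NTX-301 above DAC, with rises of 0.23 (adjusted p 0.000681) and 0.40 (adjusted p 1.69e-06). IFITM3 lay near the lower end of the scale, at 4.31 ± 0.029, 4.34 ± 0.018 and 4.38 ± 0.024 (SD, n = 3 each), and rose by 0.07 with NTX-301 (adjusted p 0.0108), a call that ended without DMSO replicate 3 or NTX-301 replicate 2 (0.05 to 0.08).

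In MOLM-13 only IFITM2 among these was called, with NTX-301. IFITM1 read 6.44, 6.63 and 6.66 with DMSO, 6.44, 6.71 and 6.59 with DAC and 6.67, 6.66 and 6.65 with NTX-301, and the groups overlapped. Its differences were 0.01 and 0.08 (adjusted p 0.945 and 0.378). IFITM2 read 8.36, 8.34 and 8.34 with DMSO, 8.28, 8.38 and 8.27 with DAC and 8.60, 8.46 and 8.51 with NTX-301. NTX-301 lay above both other groups and rose over DMSO by 0.18 (adjusted p 0.0180), a call lost without DMSO replicate 3 or NTX-301 replicate 1 (0.14 to 0.21). IFITM3 had means of 6.20, 6.25 and 6.26 and was not called. PLSCR1, a scramblase that blocks viral entry, rose by 0.11 in HL-60 with NTX-301 (adjusted p 0.0276), lost without any 1 DMSO sample or NTX-301 replicate 1 (0.08 to 0.13), and was not called in MOLM-13.

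**Figure D3:**
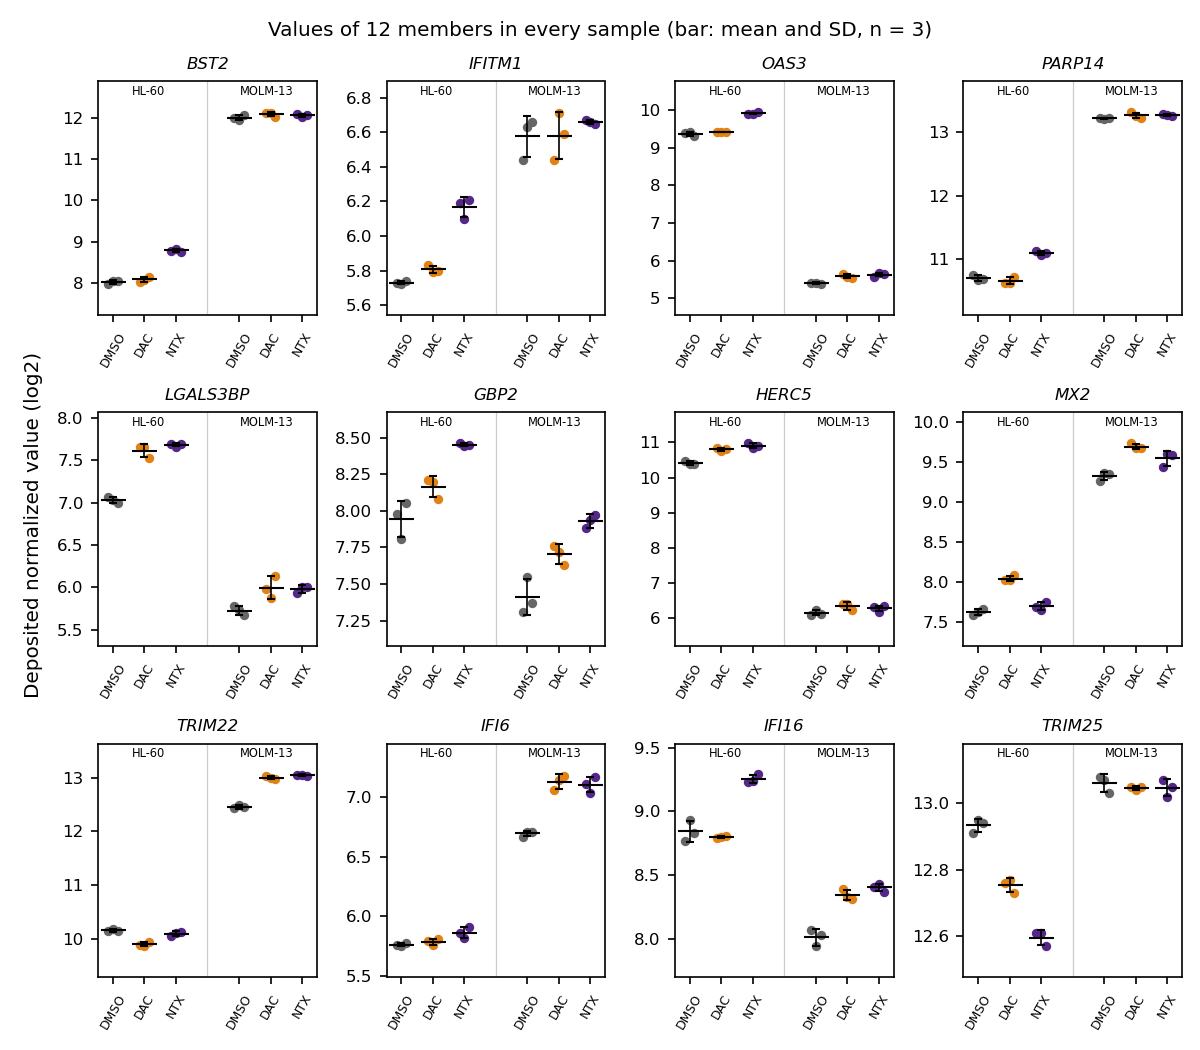
Points are the deposited log2 values of 12 members in each of the 18 samples (vertical axis, its range set per gene), with HL-60 on the left and MOLM-13 on the right of every panel, and bars give the mean and SD of the 3 samples. BST2 stands at 8.75 to 8.83 with NTX-301 in HL-60 above 7.96 to 8.14 in the other 6 samples, while TRIM22 stands apart from DMSO in MOLM-13 with both drugs.

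In the ISG15 and ubiquitin system, ISG15 was not called against DMSO in HL-60, where 2 of the 6 members, UBE2L6 and HERC5, rose with NTX-301 (all genes 18.3%), and in MOLM-13 it was called higher with DAC along with UBE2L6, HERC5 and TRIM22 (4 of 6, all genes 15.4%). ISG15, the ubiquitin-like tag, read 8.26, 8.43 and 8.44 with DMSO, 8.49, 8.43 and 8.50 with DAC and 8.16, 8.30 and 8.37 with NTX-301 in HL-60. The DMSO samples overlapped both drug groups. NTX-301 differed from DMSO by -0.10 (adjusted p 0.204) and DAC by 0.09 (adjusted p 0.269). In MOLM-13 ISG15 read 9.17, 9.19 and 9.10 with DMSO, 9.34, 9.38 and 9.25 with DAC and 9.25, 9.32 and 9.10 with NTX-301. DAC lay above DMSO by 0.17 (adjusted p 0.0439), a call lost in 6 of the 9 fits that leave out 1 library, namely without any 1 of the 3 DMSO samples, DAC replicate 1, DAC replicate 2 or NTX-301 replicate 1 (0.14 to 0.21).

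UBE2L6, which passes ISG15 on, and HERC5, the ligase that joins it to new proteins, rose with NTX-301 in HL-60. HERC5 read 10.47, 10.39 and 10.39 with DMSO, 10.83, 10.76 and 10.82 with DAC and 10.97, 10.85 and 10.91 with NTX-301. Both drug groups lay above DMSO, DAC by 0.39 (adjusted p 4.30e-06) and NTX-301 by 0.49 (adjusted p 1.44e-07). UBE2L6 read 7.37, 7.39 and 7.35 with DMSO, 7.37, 7.32 and 7.35 with DAC and 7.61, 7.53 and 7.62 with NTX-301, and only the NTX-301 samples stood above the rest, by 0.22 (adjusted p 0.000362). In MOLM-13 UBE2L6 rose by 0.32 with NTX-301 (adjusted p 0.000710) and by 0.17 with DAC (adjusted p 0.0365), and HERC5 by 0.19 with DAC (adjusted p 0.0290). Both DAC calls were lost without DMSO replicate 1 or 3 or DAC replicate 1 or 2 (0.14 to 0.22 for UBE2L6, 0.16 to 0.25 for HERC5). The related HERC6 rose there by 0.18 with NTX-301 (adjusted p 0.0444), lost without any 1 DMSO sample, DAC replicate 2 or NTX-301 replicate 1 or 2 (0.12 to 0.23).

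TRIM22, a ubiquitin ligase with activity against retroviruses and other viruses, had the highest difference of any member in MOLM-13 with each drug and the lowest with DAC in HL-60. In MOLM-13 it read 12.43, 12.50 and 12.45 with DMSO, 13.03, 13.00 and 12.97 with DAC and 13.05, 13.05 and 13.02 with NTX-301. Both drug groups stood well above DMSO. The rises were 0.54 (SE 0.0263, adjusted p 1.78e-07) and 0.58 (SE 0.0263, adjusted p 8.76e-08), the 96th and 95th highest among all genes tested. In HL-60 TRIM22 read 10.16, 10.20 and 10.15 with DMSO, 9.89, 9.88 and 9.95 with DAC and 10.06, 10.12 and 10.14 with NTX-301, both drug groups below DMSO. It fell by 0.26 with DAC (adjusted p 9.26e-05), and the -0.06 with NTX-301 did not pass (adjusted p 0.159).

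DTX3L, a ubiquitin ligase that works in a complex with PARP9, fell by 0.21 with DAC in HL-60 (adjusted p 0.000136). Its samples read 11.17, 11.13 and 11.14 with DMSO, 10.90, 10.94 and 10.96 with DAC and 11.24, 11.18 and 11.15 with NTX-301. DAC lay below all the others, and NTX-301 overlapped DMSO. PARP14, a mono-ADP-ribosyltransferase, read 10.75, 10.67 and 10.69 with DMSO, 10.62, 10.63 and 10.72 with DAC and 11.13, 11.07 and 11.10 with NTX-301 in HL-60. NTX-301 stood above the other 6 samples, a rise of 0.40 (adjusted p 5.29e-07), and the difference with DAC was -0.05 (adjusted p 0.340). In MOLM-13 PARP14 had means of 13.22, 13.27 and 13.28 and was not called. PARP9 rose with NTX-301 by 0.13 in HL-60 (adjusted p 0.0303), lost without DMSO replicate 2 or 3 or NTX-301 replicate 2 or 3 (0.09 to 0.17). Its rise in MOLM-13 was 0.16 (adjusted p 0.0166), lost without NTX-301 replicate 1 or 3 (0.13 to 0.20). PARP12 was called in neither line.

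The nuclear body and DNA-sensing members rose in MOLM-13 with both drugs, 3 of 3 with each, where the shares of all genes called higher were 15.4% (DAC) and 20.3% (NTX-301). IFI16, a sensor of foreign DNA in the nucleus, read 8.07, 7.94 and 8.03 with DMSO, 8.39, 8.33 and 8.31 with DAC and 8.41, 8.43 and 8.37 with NTX-301 there. Both drug groups lay above DMSO, by 0.33 (adjusted p 0.000527) and 0.39 (adjusted p 0.000108). In HL-60 IFI16 read 8.77, 8.93 and 8.83 with DMSO, 8.79, 8.80 and 8.81 with DAC and 9.23, 9.24 and 9.29 with NTX-301. Only NTX-301 stood above DMSO, by 0.40 (adjusted p 3.48e-06), and DAC differed by -0.04 (adjusted p 0.481).

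SP110 and SP100 are proteins of the PML nuclear bodies, which repress incoming viral genomes. SP110 rose by 0.26 with NTX-301 in HL-60 (means 9.61 and 9.86, adjusted p 3.18e-05). In MOLM-13 SP110 read 9.74, 9.77 and 9.81 with DMSO, 9.97, 10.06 and 10.10 with DAC and 10.14, 10.10 and 10.15 with NTX-301, all drug samples above DMSO. It rose there by 0.27 under DAC (adjusted p 0.000461) and by 0.36 under NTX-301 (adjusted p 4.43e-05). SP100 went opposite ways. It read 11.58, 11.52 and 11.50 with DMSO, 11.40, 11.41 and 11.42 with DAC and 11.46, 11.45 and 11.43 with NTX-301 in HL-60, where both drug groups lay below DMSO. In MOLM-13 it read 12.18, 12.21 and 12.22 with DMSO, 12.35, 12.31 and 12.34 with DAC and 12.35, 12.35 and 12.37 with NTX-301. There both drug groups lay above DMSO. SP100 fell by 0.13 (adjusted p 0.00312) and by 0.09 (adjusted p 0.0156) in HL-60 and rose by 0.13 (adjusted p 0.00130) and 0.16 (adjusted p 0.000249) in MOLM-13. Its fall with NTX-301 lost the call without DMSO replicate 1 or NTX-301 replicate 3 (-0.10 to -0.07).

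LGALS3BP, a secreted glycoprotein, and GBP2, a guanylate-binding protein of the interferon-gamma class, rose with both drugs in both lines. LGALS3BP read 7.07, 7.03 and 7.0 with DMSO, 7.65, 7.66 and 7.53 with DAC and 7.69, 7.66 and 7.69 with NTX-301 in HL-60. Both drug groups stood far above DMSO and reached about the same level. The rises were 0.59 (SE 0.0414, adjusted p 2.40e-07) and 0.65 (SE 0.0414, adjusted p 4.14e-08). In MOLM-13 it read 5.78, 5.73 and 5.67 with DMSO, 5.98, 5.87 and 6.14 with DAC and 5.93, 6.01 and 6.01 with NTX-301, again without overlap with DMSO, and rose by 0.27 (adjusted p 0.00455) and 0.25 (adjusted p 0.00483).

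GBP2 read 7.98, 7.81 and 8.05 with DMSO, 8.21, 8.20 and 8.08 with DAC and 8.46, 8.44 and 8.45 with NTX-301 in HL-60. The 3 groups did not overlap. It rose by 0.21 with DAC (adjusted p 0.0128), a call lost without DMSO replicate 2, DAC replicate 1 or DAC replicate 2 (0.15 to 0.27), and by 0.50 with NTX-301 (adjusted p 7.72e-06). In MOLM-13 GBP2 read 7.31, 7.55 and 7.37 with DMSO, 7.76, 7.72 and 7.63 with DAC and 7.88, 7.94 and 7.97 with NTX-301. These groups did not overlap either, with rises of 0.29 (adjusted p 0.00511) and 0.52 (adjusted p 7.84e-05). The DAC call in MOLM-13 was lost in some alternative.

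IFI6, which protects cells from viral replication at the endoplasmic reticulum, read 6.67, 6.71 and 6.71 with DMSO, 7.06, 7.15 and 7.18 with DAC and 7.11, 7.04 and 7.17 with NTX-301 in MOLM-13. All drug samples lay above all DMSO samples, by 0.44 (adjusted p 8.14e-05) and 0.41 (adjusted p 8.02e-05). In HL-60 it lay at 5.76, 5.79 and 5.87 and rose by 0.10 with NTX-301 (adjusted p 0.0154), lost without DMSO replicate 2 or NTX-301 replicate 3 (0.08 to 0.13). This call was also lost after centring on the sample median and after quantile normalization. IFI35 rose in MOLM-13 by 0.20 and 0.26 and was not called in HL-60. The IFI35 call with DAC was lost in some alternative. XAF1, an antagonist of the apoptosis inhibitor XIAP, rose in HL-60 by 0.22 with DAC and 0.23 with NTX-301. Its MOLM-13 rises were 0.13 and 0.08, the second lost without DMSO replicate 1 or 3, DAC replicate 2 or 3 or NTX-301 replicate 1 or 3 (0.07 to 0.10).

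SAMD9 and SAMD9L, neighbouring genes whose products restrict poxviruses, both rose with NTX-301 in HL-60, by 0.12 and 0.13. SAMD9 read 12.09, 12.09 and 12.04 with DMSO, 11.99, 12 and 11.98 with DAC and 12.21, 12.16 and 12.20 with NTX-301 there, and the 3 groups did not overlap. With DAC it fell by 0.08 (adjusted p 0.0271), a call lost without DMSO replicate 1 or 2 or DAC replicate 1 or 3 (-0.10 to -0.07). SAMD9L rose in MOLM-13 by 0.20 with NTX-301 (adjusted p 0.000634) and by 0.10 with DAC (adjusted p 0.0472), the latter lost in 8 of the 9 fits (0.08 to 0.12) and kept only without DAC replicate 2.

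The direct comparison of the drugs, 1 pair in each of the 2 lines, called 26 members in HL-60 and 2 in MOLM-13. In HL-60, 23 of 41 members were higher with NTX-301 than with DAC (56.1%) and 3 lower (7.32%), against 15.4% and 15.0% of all genes (30.4% in either direction), and the median member lay 0.133 higher. BST2 led with 0.71 (SE 0.0430, adjusted p 4.99e-08), the 15th highest of all genes tested, followed by OAS3 with 0.49 (adjusted p 1.88e-07), IFI16 with 0.45 (adjusted p 2.23e-06) and PARP14 with 0.45 (adjusted p 3.41e-07). STAT2 was higher by 0.20 (adjusted p 5.52e-05), IFITM1 by 0.36 (adjusted p 1.36e-06) and IFITM2 by 0.17 (adjusted p 0.00322). TRIM22 was higher by 0.19 and DTX3L by 0.26, both of which fell with DAC. PLSCR1 was higher by 0.12, lost without DAC replicate 2 or NTX-301 replicate 1 (0.09 to 0.15), and HERC5 by 0.11, lost without any 1 DAC sample or NTX-301 replicate 1 or 3 (0.08 to 0.14). MX2, ISG15 and TRIM25 were the 3 that were lower. ISG15 lay lower by -0.19 (adjusted p 0.0210), which lost its call without DAC replicate 1, DAC replicate 3 or NTX-301 replicate 1 (-0.24 to -0.14). IRF1 lay higher by 0.12 (adjusted p 0.0241), lost without DAC replicate 2 or 3 or NTX-301 replicate 3 (0.09 to 0.15). LGALS3BP differed by 0.06 with a 95% interval from -0.03 to 0.15, XAF1 by 0.01 (-0.09 to 0.12), IRF9 by 0.01 (-0.07 to 0.09) and IFITM3 by 0.04 (0.00 to 0.08), and these did not pass.

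In MOLM-13, 1 of 44 members was called higher with NTX-301 than with DAC and 1 lower (2.27% each), against 3.01% and 4.41% of all genes (7.42% in either direction). IFITM2 was higher by 0.21 (adjusted p 0.0355) and IFIT1 lower by -0.13 (adjusted p 0.0170). Neither held when libraries were left out. IFITM2 was lost in 7 of the 9 fits (0.17 to 0.25, kept only without DMSO replicate 1 or DAC replicate 2) and IFIT1 without DAC replicate 2 or NTX-301 replicate 2 or 3 (-0.15 to -0.11). For some members called higher with both drugs the interval of the difference between the drugs spanned 0: TRIM22 0.04 (-0.02 to 0.10), IFI6 -0.03 (-0.14 to 0.09), IFI16 0.06 (-0.05 to 0.18) and LGALS3BP -0.01 (-0.15 to 0.12). It also did for BST2, which had no call with either drug (-0.03, -0.11 to 0.05). GBP2 gave 0.23 (0.08 to 0.37), and its adjusted p of 0.0650 missed the threshold. ISG15 gave -0.10 (-0.23 to 0.03) and STAT2 0.06 (0.01 to 0.12), neither past the test.

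The effects of each drug in the lines were set against each other (MOLM-13 minus HL-60) in a joint fit of the 18 samples over 15474 genes. With DAC, 14 of 41 members had a higher effect in MOLM-13 (34.1%) and 3 a lower one (7.32%), against 12.1% and 17.9% of all genes (30.0% in either direction). TRIM22 led with 0.80 (SE 0.0408, adjusted p 8.66e-11), then IFI6 with 0.41 (adjusted p 1.72e-05) and IFI16 with 0.37 (adjusted p 0.000220). LGALS3BP (-0.32), IFITM2 (-0.26) and USP18 (-0.20) had the lower effects in MOLM-13. With NTX-301, 6 members had a higher effect in MOLM-13 (14.6%) and 10 a lower one (24.4%), shares near the 17.6% and 22.4% of all genes (40.0% in either direction). BST2 was lowest with -0.72 (SE 0.0581, adjusted p 1.86e-08), followed by LGALS3BP (-0.39), HERC5 (-0.37), IFITM1 (-0.36), PARP14 (-0.34) and OAS3 (-0.30). TRIM22 had the highest with 0.64 (adjusted p 9.15e-10), and TRIM25, which fell only in HL-60 among the calls, followed with 0.32 (adjusted p 1.28e-07). GBP2 showed close values in the lines: 0.08 (95% interval -0.11 to 0.27) for DAC and 0.02 (-0.17 to 0.21) for NTX-301, neither past the test.

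**Figure D4:**
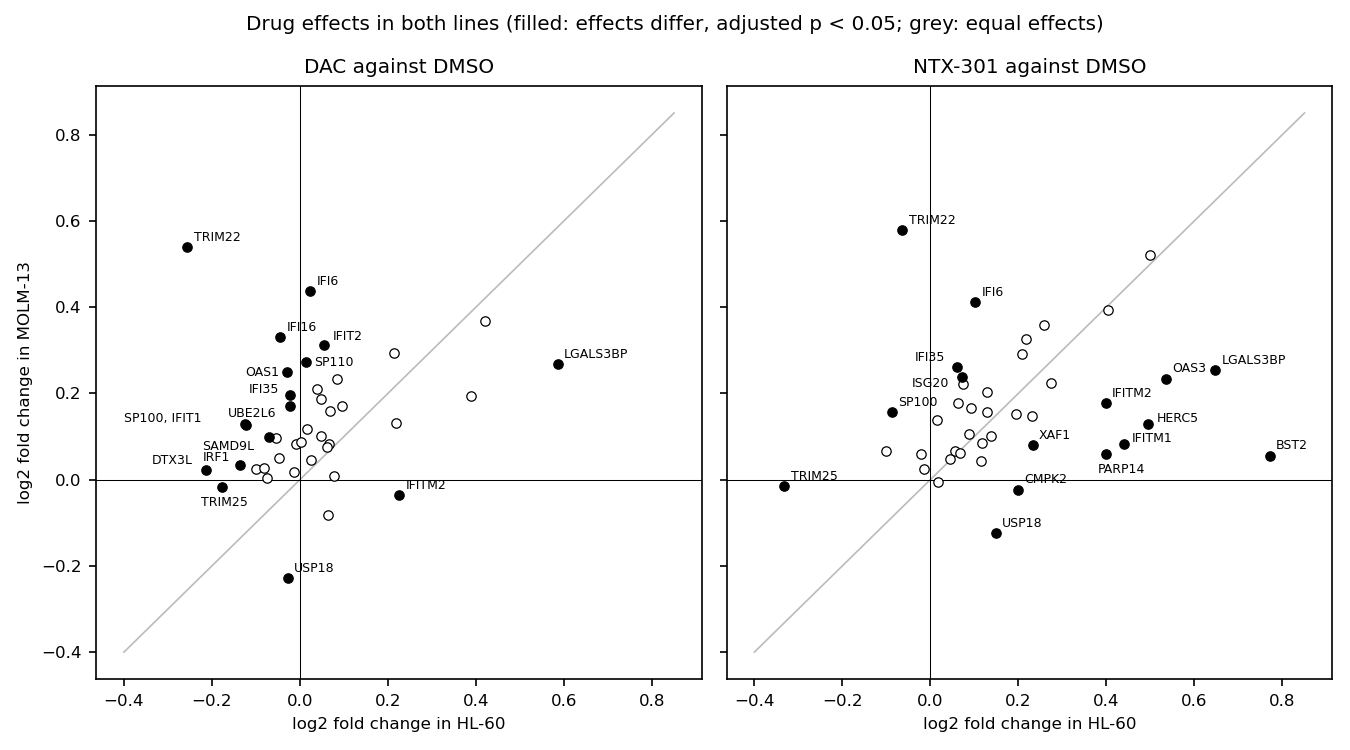
Each point is 1 of the 41 members listed for both lines, with its log2 fold change against DMSO in HL-60 (horizontal) and MOLM-13 (vertical), DAC on the left and NTX-301 on the right. Filled and named points had effects that differ between the lines at an adjusted p under 0.05; TRIM22 lies far above the grey line of equal effects in both panels and BST2 far below it with NTX-301.

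The promoter motif did not sort the called members in 1 way across the lines; this is a description over the members with a window, without a test. In HL-60 with NTX-301, 14 of 21 listed members with an ISRE match and 8 of 14 without were called higher (all genes 18.3%). With DAC there, 2 of 21 with a match and 1 of 14 without were called higher, near the 11.6% of all genes. In MOLM-13 with DAC these were 7 of 22 with a match and 10 of 14 without (all genes 15.4%). With NTX-301 in MOLM-13 they were 8 of 22 and 11 of 14 (all genes 20.3%). BST2, whose window holds the overlapping pair printed above, was called in HL-60 and not in MOLM-13, and the IFI6 window with its separate matches belonged to a member with a larger rise in MOLM-13. Other listed members also held more than 1 match within a window. Of these, OAS3, DDX60 and IFIT5 passed the test upward under NTX-301, set against DMSO, in both lines. HERC5, IFIT3, IFITM1 and IFITM3 did so in HL-60 alone, and ISG15, IFIT1 and TRIM21 in neither line. The calls of IFIT3, IFIT5 and IFITM3 were lost in some alternative.

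The wider pathway was read from lists of 31 genes of interferon ligands, receptors and signalling and 19 of nucleic acid sensing. The 10 interferon ligand genes among the 31 were listed for neither line. Of the signalling genes listed (19 in HL-60, 21 in MOLM-13), 2 were higher and 2 lower with DAC in HL-60, 8 and 4 with NTX-301 in HL-60, 8 and 3 with DAC in MOLM-13, and 7 and 3 with NTX-301 in MOLM-13. All genes called higher and lower made up 11.6% and 12.6%, 18.3% and 19.2%, 15.4% and 21.2%, and 20.3% and 24.8% in the same order, so the DAC counts in HL-60 and the counts called lower are near or below the background. Of the calls in these comparisons 1, 2, 7 and 3 were lost in some alternative. IRF7, the main inducer of interferon-alpha genes, read 8.50, 8.35 and 8.71 with DMSO, 8.65, 8.61 and 8.54 with DAC and 8.93, 8.88 and 8.95 with NTX-301 in HL-60. NTX-301 lay above all others and rose by 0.40 (adjusted p 0.000334). In MOLM-13 IRF7 rose by 0.20 with NTX-301 (adjusted p 0.0236, lost without DMSO replicate 2 or NTX-301 replicate 1 or 2, 0.13 to 0.23). That call was also lost after quantile normalization.

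IRF5, a factor of Toll-like receptor signalling, was higher with NTX-301 than with DAC in HL-60 by 0.48 (adjusted p 1.51e-06), the largest difference on that list. IRF8, a factor of monocyte and dendritic cell identity that was listed for MOLM-13 alone, fell there by 0.22 with DAC (adjusted p 0.000112) and by 0.46 with NTX-301 (adjusted p 4.90e-07). SOCS3, a feedback inhibitor of JAK kinases, rose by 0.44 with DAC in MOLM-13 (adjusted p 0.00754; 0.33 to 0.62 with 1 library left out). The receptor subunit IFNAR2, named after its values were seen, rose in all 4 comparisons with DMSO. In HL-60 the rises were 0.13 with DAC and 0.30 with NTX-301, and in MOLM-13 they were 0.15 and 0.23.

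Among 16 sensing genes listed in each line, 2 were higher and 2 lower with DAC in HL-60, 4 and 1 with NTX-301 in HL-60, 9 and 0 with DAC in MOLM-13, and 10 and 1 with NTX-301 in MOLM-13. Against the same shares of all genes, the DAC counts in HL-60 lie at the background, and 4 with NTX-301 in HL-60 near it. All 4 DAC calls in HL-60, 1 with NTX-301 there, 4 with DAC in MOLM-13 (ADAR, MAVS, TICAM1 and TLR8) and 5 with NTX-301 in MOLM-13 were lost in some alternative. IFI16, a member above, had the largest difference on this list (0.45, NTX-301 against DAC in HL-60). TLR9, the receptor for unmethylated CpG DNA, rose by 0.44 with DAC in MOLM-13 (adjusted p 0.00329), where its samples read 7.97, 7.90 and 7.80 with DMSO and 8.16, 8.32 and 8.51 with DAC without overlap. IKBKE, a kinase that activates IRF3, was higher with NTX-301 than with DAC in HL-60 by 0.39 (adjusted p 3.58e-07).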

How the data were processed

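Total RNA of 18 samples was sequenced from stranded libraries, per the labels' protocols. The submitters' processing notes name FastQC, Trimmomatic 0.38, HISAT2, StringTie and hg19, with no order or role, and do not state the normalization. The deposited tables hold 1 normalized log2 value per gene and sample, used as the authors deposited them; strand use in counting is not given in the sources used here. Groups came from sample titles. In R 4.3.3, limma 3.58.1 (mean-variance trend) was fitted per line over 9 samples and, for differences between lines, over all 18, with Benjamini-Hochberg adjustment over all genes tested (linear value 1 or more in 3 or more samples). Scripts were tested on simulated data. The members and lists were chosen with earlier results of these data known. Per comparison the text names the 4 highest and 2 lowest called members with a group mean of at least 5, plus STAT2, IRF9, IRF1, ISG15 and IFITM1 to IFITM3; other members are given in short by role. From the pathway lists it names the 3 largest differences each and IRF7; 1 further gene that the rule names is not reported here. Alternatives covered scaling, trend, samples fitted, filter, log2(linear value + 16), replicate block and leaving out each library.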

Additional observations from a re-analysis of the deposited data

Results flagged for a closer look

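The effect of a drug differed between the lines for 33 combinations of member and drug, by the limma test of the difference of effects (MOLM-13 minus HL-60) with an adjusted p under 0.05. With DAC these were 17 of 41 members, where 30.0% of all 15474 genes were called in either direction. With NTX-301 they were 16 of 41, where 40.0% of all genes were called, so that count is near the background. With DAC the difference was 0.80 for TRIM22, 0.41 for IFI6, 0.37 for IFI16, 0.28 for OAS1, 0.26 for IFIT2, 0.26 for SP110, 0.25 for IFIT1, 0.25 for SP100, 0.24 for DTX3L, 0.22 for IFI35, 0.19 for UBE2L6, 0.17 for IRF1, 0.17 for SAMD9L and 0.16 for TRIM25. It was -0.20 for USP18, -0.26 for IFITM2 and -0.32 for LGALS3BP. With NTX-301 the difference was 0.64 for TRIM22, 0.32 for TRIM25, 0.31 for IFI6, 0.24 for SP100, 0.20 for IFI35 and 0.17 for ISG20. It was -0.15 for XAF1, -0.22 for CMPK2, -0.22 for IFITM2, -0.27 for USP18, -0.30 for OAS3, -0.34 for PARP14, -0.36 for IFITM1, -0.37 for HERC5, -0.39 for LGALS3BP and -0.72 for BST2. UBE2L6 with DAC (0.16 to 0.24), USP18 with DAC (-0.24 to -0.17), CMPK2 (-0.28 to -0.18), ISG20 (0.13 to 0.24) and XAF1 (-0.20 to -0.12) with NTX-301 lost the call in 7 to 14 of 18 fits that leave out 1 library. The DAC difference of SAMD9L lost its call after centring on the sample median. The stated concentration differs between the lines, so line and dose cannot be told apart. Some of these genes also read at different levels in the lines, as given above, and the part of level was not tested.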

How the results depend on the processing

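Of 154 alternative counts of members called, 144 stayed within 1.5 times the main count, and the 10 others belong to NTX-301 against DAC in MOLM-13. There the main count of 2 became 1 when only the groups compared were fitted, with log2(linear value + 16) and with the replicate block, and 0 to 2 with 1 library left out. Leaving out 1 library gave 10 to 13, 23 to 28 and 23 to 28 calls for DAC against DMSO, NTX-301 against DMSO and NTX-301 against DAC in HL-60, 18 to 23 and 17 to 23 for DAC and NTX-301 against DMSO in MOLM-13, and 15 to 19 and 13 to 16 for the differences of the DAC and NTX-301 effects. Among members within a line, 1 value was called on the other side of 0: TRIM25 with NTX-301 in MOLM-13, not called at -0.02, was called higher at 0.08 after quantile normalization; the cause was not tested. Another 46 of 255 member values crossed 0 in some alternative without a call there, none of them called in the main analysis. Outside the members, ADAR (0.10) and PTPN6 (0.08) with NTX-301 in MOLM-13, not called, were also called on the other side of 0. Centring on the sample median left 20 higher and 3 lower of the 26 and 2 for NTX-301 in HL-60. Calls kept in every alternative were 9 of 13, 19 of 28 and 22 of 26 in HL-60 (DAC, NTX-301, NTX-301 against DAC), 14 of 23, 15 of 23 and 0 of 2 in MOLM-13. Same-numbered replicates showed no shared deviation (correlations from -0.163 to 0.121). With 3 samples a group this cannot settle whether the numbers pair samples, and the main fit did not pair them. With the replicate block, 27 members were called with NTX-301 in HL-60 and 21 in MOLM-13. With the longer ISRE the share of members with a match fell from 65.9% to 39.0%. Depth is unknown, and 3 samples a group limit what the test can call.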
